A study of Mus musculus with 2 samples.

Results

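The peaks described here are the REV-ERBα binding sites listed around 3 genes of the repressive chromatin machinery in mouse T helper 17 (Th17) cells, Ezh2, Hdac4 and Ncor1. They were chosen by position. A peak was taken where its midpoint lay in one of 3 windows of the mm9 genome, chromosome 6 from 47450000 to 47600000 (Ezh2 with its upstream flank), chromosome 1 from 93800000 to 94120000 (Hdac4) and chromosome 11 from 62110000 to 62300000 (Ncor1). This gave 16 of the 8884 peaks in the list, 4 in the Ezh2 window, 10 in the Hdac4 window and 2 in the Ncor1 window, so no window was empty. The windows were drawn with the peak list known, so the number and strength of the peaks in them are given as a description, with no test.

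The data come from chromatin immunoprecipitation followed by sequencing (ChIP-seq) with an antibody to REV-ERBα in wild-type Th17 cells grown in primary culture, a class of CD4 T cells that makes interleukin-17. The series asks where this receptor binds in these cells. There was 1 ChIP sample and 1 input DNA sample from the same kind of cells, with no treatment or mutant, and nothing below has a replicate check. The ChIP library held 6390234 tags, that is aligned reads, and intervals are 95% intervals that cover counting error only. The list holds no expression values, so neither the cell type nor the activity of the 3 genes could be checked against it. Genes and exons were not placed in mm9 here, so a peak is described by its window and not by a promoter or an intron.

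REV-ERBα, encoded by Nr1d1, is a repressor of the nuclear receptor family and a component of the circadian clock. It lacks the part of the receptor that would bind coactivators and instead recruits the corepressor NCoR1, the product of Ncor1, which carries the histone deacetylase HDAC3 to the bound site. HDAC4 is a class IIa histone deacetylase that moves between cytoplasm and nucleus and binds transcription factors of the MEF2 family. EZH2 is the catalytic subunit of Polycomb repressive complex 2, which methylates histone H3 in silenced chromatin, and in T cells it is known to restrain cytokine genes of other lineages. Ncor1 thus encodes a partner of REV-ERBα itself, while Ezh2 encodes a histone methyltransferase and Hdac4 a class IIa histone deacetylase.

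The 3 windows differed in their peaks. The Hdac4 window held 10 peaks, of which 7 had a neighbour within 10 kb, as 33.7% of the list had. The Ezh2 window held 4 peaks, of which a pair at the higher coordinates carried most tags. These windows differ in length, and their peaks per Mb were alike, 31.2 for Hdac4 and 26.7 for Ezh2. The Ncor1 window held a peak of 27 tags and one of 12. Over all 16 peaks the median was 27.5 ChIP tags, against 15 over the list, and 10 of the 16 had at least 22 tags, as 20.2% of the list had. The listed fold over input did not stand out in the same way. Its median was 9.66 in the 16 peaks and 10.6 in the list, and 10 of the 16 were listed at 8-fold or more, against 61.5% of the list. The score, which is the peak height given by the caller and is capped at 1 tag per bp, had a median of 22 in the 16 peaks and 13 in the list. Scores, folds and p-values per peak are the authors' own values. The authors' Poisson p over input ran from 7.17e-90 to 4.22e-05 in the 16 peaks, where 1e-04 was their limit.

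**Figure D1:**
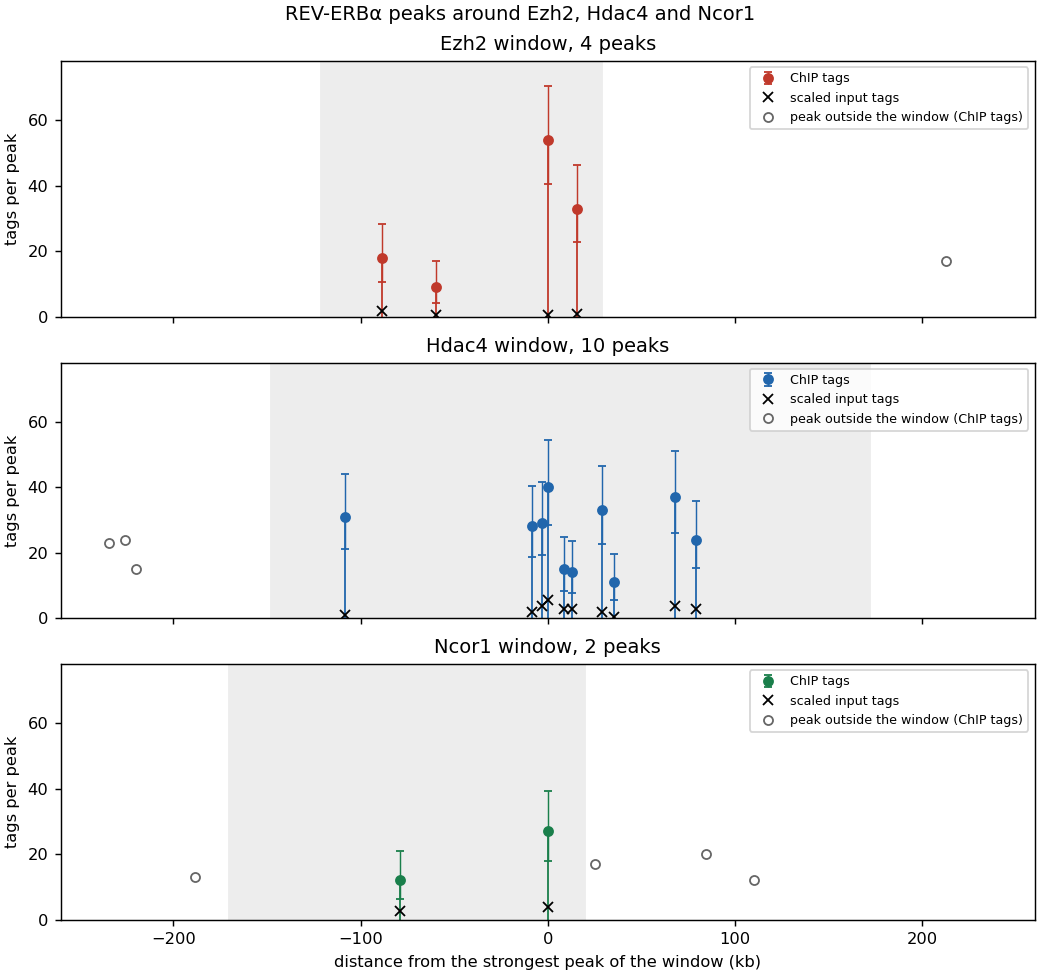
ChIP tags per peak (filled points, with 95% Poisson intervals) and scaled input tags (crosses) against distance in kb from the strongest peak of each window, with the window shaded and the nearest listed peaks outside it as open circles (at most 3 on each side, where they fall on the axis). The 10 Hdac4 peaks reach 40 tags and lie close together, the Ezh2 peaks of 54 and 33 tags stand beside each other, and an open circle lies just above the upper end of the Ncor1 window.

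The strongest of these peaks was in the window of Ezh2, the Polycomb methyltransferase gene. It lay on chromosome 6 at 47571097 to 47571403 and held 54 ChIP tags (40.6 to 70.5), against 0.5 scaled input tags, with a score of 45. No other peak on chromosome 6 held more tags, and 10 peaks in the whole list did. The next peak, at 47586463 to 47586769, held 33 ChIP tags (22.7 to 46.3), against 0.9 scaled input tags, with a score of 28. Their midpoints lay 15.4 kb apart. The first held 62.1% of the tags of this pair (exact binomial interval 51.0 to 72.3). The pair was picked as the peaks of the window with the most tags. The interval does not allow for that choice, so it does not settle whether they differ in strength. Together they held 87 of the 114 tags in the peaks of the window, or 76.3% (exact binomial interval 67.4 to 83.8).

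The other Ezh2 peaks lay at lower coordinates and were weaker. The peak at 47482464 to 47482770 held 18 ChIP tags (10.7 to 28.4), against 1.9 scaled input tags, with a score of 12. At 47511460 to 47511766 there were 9 ChIP tags (4.12 to 17.1), against 0.5 scaled input tags, with a score of 11. This is among the lowest counts in the list, where 0.619% of the peaks had fewer tags. The interval of the 54-tag peak lies above those of both weaker peaks, while that of the 33-tag peak overlaps the interval of the 18-tag peak. From low to high coordinates the midpoints were 29.0 kb, 59.6 kb and 15.4 kb apart. None of the 4 thus had a neighbour within 10 kb, as 33.7% of the list had. Their density was 26.7 peaks per Mb (Poisson interval 7.27 to 68.3), against 3.50 over all chromosomes. Of windows of 150 kb laid over every chromosome, 3.40% held at least 4 peaks. The Ezh2 window was drawn with its peaks known, so this share is a description only.

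Input was low under the Ezh2 peaks, and their folds rest on very few input tags. An input value of 0.5 is the lowest in the list and was read as no input tag, which holds for 2 of the 4 peaks and for 16.8% of the list, since 1 input tag is worth 0.945 scaled tags. The listed fold of the strongest peak, 114, is set by that lowest value. Set against 3 input tags, the upper limit used here for a count of 0, the fold was 19.0 with the 54 ChIP tags taken as exact. The lower end of the exact binomial interval, which also takes in the counting error of the 54 ChIP tags, was 15.0. The 9-tag peak, listed at 19.0-fold, was on the same reckoning 3.17-fold over that limit, with a lower end of 2.09. The 33-tag peak was 34.9-fold over input on 1 input tag (5.84 to 1420), and the 18-tag peak 9.52-fold on 2 input tags (2.28 to 84.6). Summed over the window, 114 ChIP tags stood against 3 input tags, a fold of 40.2 with an interval of 13.4 to 198. The same sum over the list without its strongest region gave 10.01-fold. Without the peaks at the lowest input value, 2 of the 4 peaks and 51 of the 114 tags remained, and the summed fold was 18.0.

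The surroundings of the Ezh2 peaks were empty of listed peaks on the low side. From the first peak of the window down chromosome 6 there was no listed peak for 4.11 Mb, and 1.06% of the 8864 distances between neighbouring peaks in the list were longer. On the high side the next listed peak began at 47784037, 198 kb from the last one in the window, and held 17 ChIP tags. Enrichment over the surrounding 10000 bp, which the caller also requires to reach 4-fold, was 15.99-fold for the 54-tag peak and 10.8-fold for the 33-tag peak. It was 9.83-fold for the 18-tag peak and 5.38-fold for the 9-tag peak. This order repeats that of the tags, which are the numerator of the fold, so it is not a separate result. Cul1, which encodes the scaffold of a ubiquitin ligase, and the predicted gene Gm40369 are the nearest protein-coding neighbours of Ezh2 in the RefSeq table of the GRCm38.p6 assembly. Which of these genes lies nearest to each peak in mm9 was not determined.

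The window of Hdac4, the class IIa deacetylase gene, had the most peaks, 10 in 320 kb. This is 31.2 peaks per Mb (Poisson interval 15.0 to 57.5), against 3.52 on chromosome 1 and 3.50 over all chromosomes. When every chromosome was laid out in windows of 320 kb, 73 of 8228 (0.887%) held at least 10 peaks, and the fullest held 19. The Hdac4 window was placed around its peaks and the others were not, so this share only describes how common such a number is. The peaks spanned 187 kb and held 262 ChIP tags, and 7 of the 10 had at least 22 tags, as 20.2% of the list had. The median of the 10 was 28.5 tags, against 15 in the list. Their strongest, of 40 tags, had more tags than 98.6% of the list. Input under them summed to 28 tags, giving 9.90-fold over the window (6.69 to 15.2), which includes the 10.01-fold of the list.

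A central group of 5 peaks, each at most 10 kb from the next, carried 126 of these tags over 21.8 kb. In order of position it began at 93939012 to 93939318 with 28 ChIP tags, against 1.9 scaled input tags, and a score of 24. The next, at 93944468 to 93944774, had 29 ChIP tags, against 3.8 scaled input tags, and a score of 22. Its strongest member followed at 93947664 to 93947970, with 40 ChIP tags (28.6 to 54.5), against 5.7 scaled input tags, and a score of 32. The other members, at higher coordinates, had fewer tags. The peak at 93956284 to 93956590 had 15 ChIP tags (8.40 to 24.7), against 2.8 scaled input tags, and that at 93960780 to 93961086 had 14 (7.65 to 23.5), against 2.8 scaled input tags, both with a score of 13. The distances between the 5 midpoints were 5.46, 3.20, 8.62 and 4.50 kb. Counts of 28, 29 and 40 overlap within their intervals, whereas the intervals of the 15-tag and 14-tag peaks lie below that of the 40-tag peak.

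Next to this group, 15.9 kb further on, lay a couple of peaks 6.11 kb apart. The peak at 93976728 to 93977034 held 33 ChIP tags (22.7 to 46.3), against 1.9 scaled input tags, with a score of 27. Beside it, at 93982840 to 93983146, the caller listed 11 ChIP tags (5.49 to 19.7), against 0.5 scaled input tags, with a score of 12. These intervals do not overlap, but they do not allow for the window being drawn with its peaks known. With the central group they make 7 of 10 Hdac4 peaks with a neighbour within 10 kb, where the list had 33.7%. That number was 4 when near meant 5 kb, and 2 when only peaks of at least 8-fold over input were kept.

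The remaining 3 Hdac4 peaks stood apart from these and were of like strength. At the low end, 99.7 kb before the central group, the peak at 93839284 to 93839590 held 31 ChIP tags (21.1 to 44.0), against 0.9 scaled input tags, with a score of 25. At the high end the peak at 94015820 to 94016126 held 37 ChIP tags (26.1 to 51.0), against 3.8 scaled input tags, with a score of 31. The last peak, 10.8 kb beyond it at 94026591 to 94026897, held 24 ChIP tags (15.4 to 35.7), against 2.8 scaled input tags, with a score of 22. All 3 intervals overlap. No peak was listed over the next 1.21 Mb of chromosome 1, and 5.36% of the distances in the list were longer. On the low side 3 further peaks of 15 to 24 tags lay 72.0 to 86.7 kb below the window, outside the rule.

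Fold over input varied among the Hdac4 peaks, with wide intervals. The highest that rests on any input tag was 32.8 at the isolated low-end peak (5.47 to 1337 on 1 input tag). The 33-tag peak was 17.5-fold (4.46 to 150) and the first peak of the central group 14.8-fold (3.73 to 128). The 40-tag peak, which had the most input of the 16 peaks, was 7.05-fold (2.97 to 20.4), and the 15-tag and 14-tag peaks were 5.29-fold and 4.94-fold. All these intervals overlap. The 11-tag peak was listed at 23.3-fold with input at the lowest value. It was 3.88-fold over a limit of 3 input tags, with a lower end of the exact interval of 2.66. Keeping peaks of at least 8-fold left 6 of the 10 peaks and 164 of the 262 tags, and took 4 of the 5 central peaks out.

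**Figure D2:**
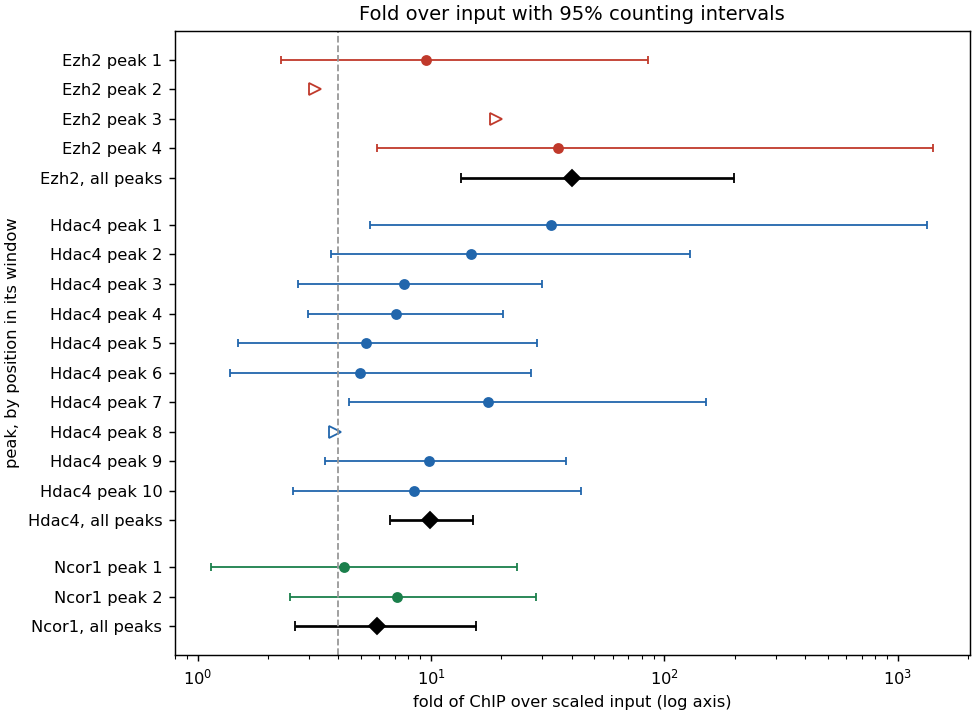
Fold of ChIP over scaled input on a log axis for each of the 16 peaks, in order of position within its window, with exact 95% binomial intervals; open triangles are the folds of peaks with no input tag against a limit of 3 input tags, black diamonds are sums over a window and the dashed line is the authors' limit of 4-fold. The intervals of single peaks overlap widely, and the sums are 40.2-fold for Ezh2, 9.90-fold for Hdac4 and 5.89-fold for Ncor1.

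The DNA around the Hdac4 peaks also gave more ChIP tags than that around most listed peaks. Dividing the tags of a peak by its listed fold over the surrounding 10000 bp gives the number of tags that this region would place in the peak. The median was 3.31 in the 10 Hdac4 peaks, 1.93 in the list and 2.72 among the listed peaks of at least 22 tags. Every one of the 10 lay above the list's median, from 2.52 to 5.78. The low-end peak, whose nearest listed peak was 99.7 kb away, had 4.38, more than 96.8% of the list. Neighbouring peaks count in each other's surroundings, and listed peaks with more tags had the higher median given above. How much of the result goes with either was not tested. Listed fold over the local region ran from 4.21 to 12.2, with a median of 6.84, against 7.78 in the list. Of the 10 peaks, 3 lay under 5, as 10.5% of the list did. These were the 15-tag, 14-tag and 11-tag peaks, the weakest of the window, which passed the 4-fold local filter at 4.21-, 4.57- and 4.36-fold. In the Ezh2 window the same expected number ran from 1.67 to 3.38, and in the Ncor1 window it was 1.93 and 1.67.

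**Figure D3:**
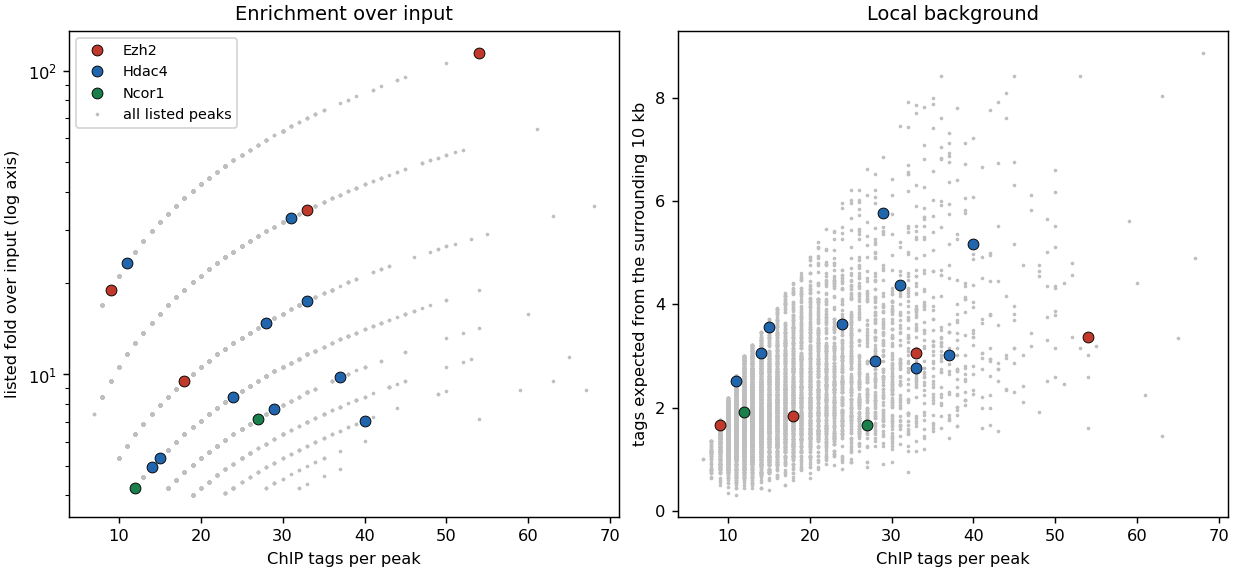
Listed fold over input (left, log axis) and tags expected from the surrounding 10000 bp (right) against ChIP tags per peak, for the Ezh2, Hdac4 and Ncor1 peaks in colour and the listed peaks in grey, without the strongest region of the list. The curves on the left are whole numbers of input tags, the uppermost being none; on the right the 10 Hdac4 peaks lie between 2.52 and 5.78, above the list's median of 1.93.

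The window of Ncor1, the corepressor gene whose product REV-ERBα recruits, had the fewest peaks and the lowest summed fold over input. The peak at 62280178 to 62280484 on chromosome 11 held 27 ChIP tags (17.8 to 39.3), against 3.8 scaled input tags, with a score of 22. The peak at 62201045 to 62201351, 79.1 kb below it, held 12 ChIP tags (6.20 to 21.0), against 2.8 scaled input tags, with a score of 11. The first held 69.2% of the tags of both (exact binomial interval 52.4 to 83.0). The window was drawn with its peaks known. The interval does not allow for that, so it does not settle whether these peaks differ in strength. The first was 7.14-fold over input (2.49 to 28.1) and stood out from its surroundings, at 16.1-fold over the local region, above 94.5% of the list. The second was listed at 4.23-fold over input (1.14 to 23.4), close to the authors' limit of 4-fold, where 0.36% of the list was lower, and 6.23-fold over the local region.

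Both together gave 39 ChIP tags against 7 input tags, 5.89-fold (2.61 to 15.6). Neither reached 8-fold over input, which 61.5% of the list did, so no peak was left at that limit; 1 peak of 27 tags was left at a score of at least 12. The density of 10.5 peaks per Mb (1.27 to 38.0) compares with 5.87 on chromosome 11 and 3.50 over all chromosomes, and 15.6% of the windows of 190 kb held at least 2 peaks. The number also depends on where the window ends. A peak of 17 ChIP tags, 5.99-fold over input, lay at 62305164 to 62305470, 5.32 kb above the upper end, and one of 13 ChIP tags, 6.88-fold, lay 18.1 kb below the lower end. The last peak inside lay 19.7 kb from the upper end. Widening the window by 50 kb on each side gave 4 peaks with 69 tags. The protein-coding neighbours of Ncor1 in GRCm38.p6 are Ttc19, which acts in assembly of a respiratory chain complex, and Pigl, an enzyme of membrane anchor synthesis, and the peaks were not assigned among them. Those of Hdac4 are Twist2, a basic helix-loop-helix factor, and Ndufa10, a subunit of respiratory complex I.

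Set side by side, the sums of input tags per peak were 0.75 for Ezh2, 2.8 for Hdac4 and 3.5 for Ncor1, with 1.79 in the list without its strongest region. The median ChIP tags per peak were 25.5, 28.5 and 19.5 in the same order. The summed folds were 40.2, 9.90 and 5.89 in that order, and the differences between them were not tested, since the windows were chosen with these values known. The tags in peaks per kb of window were 0.76 for Ezh2 and 0.819 for Hdac4, and 0.205 for Ncor1. Scores per ChIP tag ran from 0.667 to 1.22 over the 16 peaks, with a median of 0.843, against 0.88 in the list.

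The sequence under the peaks was not read here, since no mm9 genome was used. REV-ERBα is known to bind the sequence AGGTCA preceded by an A/T-rich stretch, the ROR response element (RORE). In the RefSeq promoter table of GRCm38.p6, which gives 300 bases around each start, Ezh2 and Hdac4 have 1 promoter each and Ncor1 has 2. None of these 4 holds AGGTCA on either strand, as 16.3% of all 32851 promoters do, and none holds the RORE, which contains GGTCA and can overlap AGGTCA, as 0.384% of all do. This says only that these letters are not in these 4 promoters, and whether a listed peak covers any of the promoters was not determined.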

How the data were processed

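One REV-ERBα ChIP library and one input library of Th17 cells were used through the peak list of the ChIP sample. Per the submitters' processing notes, CASAVA 1.8.2, Bowtie and HOMER were used with the build mm9; versions of the last 2 tools are not given in the sources used. Per the file headers, the authors called peaks with HOMER findPeaks against input, with a size of 306 bp, a minimum distance of 612 bp, a threshold of 9 tags (false discovery rate 0.001), and 4-fold with a Poisson p-value of 1e-04 over input and over the local 10000 bp. Total tags are deposited as counts. Input tags are a signal that the authors scaled to the ChIP depth, and the normalized tag count is a signal scaled to 10000000 tags. Fold values are deposited ratios, the p-value of each peak is the authors' and was not recomputed, and the score is deposited as the caller's peak height.

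Input tags were recovered as tags divided by the listed fold, in steps of 0.945; all 7392 peaks above the lowest value lay on whole steps within a relative 0.02. The width over which input was counted is not stated in the file or labels. Counts carry exact Poisson intervals, shares exact Clopper-Pearson intervals, and folds exact binomial intervals. Peak density used the distance from first to last peak of each chromosome, 2540 Mb in all. The code was tested on simulated peaks. Python 3.11.15, numpy 2.4.6, pandas 2.3.3, scipy 1.17.1 and matplotlib 3.10.9 were used. Every peak in the windows is named. The windows, genes, limits and motifs were chosen with earlier results of these data known. Alternatives were stricter limits on fold and score, other window bounds, other neighbour distances, other summaries and leaving out peaks without input tags. Genes of the same complexes were not examined, as no mm9 annotation was used.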

Additional observations from a re-analysis of the deposited data

How the results depend on the processing

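Of 86 values recomputed under 9 other settings, 72 stayed within 1.5 times the count or within the counting interval of the value reported. This is a loose standard, since many of these intervals are wide and counting any overlap with a window changed no value at all. Keeping peaks of at least 8-fold over input left 6 Hdac4 peaks with 164 tags, of which 2 had a neighbour within 10 kb, and it left 0 Ncor1 peaks, hence 0 tags, a density of 0 and no pooled fold. A score of at least 12 left 1 Ncor1 peak of 27 tags. Widening the windows by 50 kb gave 4 Ncor1 peaks with 69 tags. Without the peaks at the lowest input value, 2 Ezh2 peaks with 51 tags remained and their summed fold was 18.0, against 40.2. Counting neighbours within 20 kb gave 2 Ezh2 peaks with one, and within 5 kb 4 Hdac4 peaks. Counting any overlap with a window, the median of the listed folds and the density of the same chromosome moved no value beyond these limits; the causes were not tested. The wider search for motifs under the peaks was not run, since no mm9 sequence was used. Leaving out a replicate was not possible with 1 ChIP sample. No paired analysis was possible because there is 1 ChIP sample and 1 input sample. The caller's threshold was 9 on the scale of the score, while listed peaks held 7 tags or more, so weaker sites would go unlisted and a stretch without a listed peak may still be bound.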
